A study of Mus musculus with 2 samples.

Results

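Arg1-high macrophage barcodes of the library titled positive numbered 559 of its 10842 barcodes (5.16%, exact Clopper-Pearson 95% interval 4.75 to 5.59), and of 21259 barcodes in both libraries. A barcode marks the RNA of 1 captured droplet or well, usually 1 cell, and a unique molecular identifier (UMI) marks 1 RNA molecule. A barcode was a member when it passed 4 gates and then an Arg1 gate. The 4 gates were at least 15 summed UMIs of the myeloid genes Tyrobp, Fcer1g and Ctss, at most 1 UMI of the neutrophil receptor gene Csf3r, at most 5 of the epithelial genes Epcam, Krt8 and Krt18, and at most 3 of the microglial genes P2ry12, Tmem119, Siglech and Cx3cr1. Members then had at least 5 Arg1 UMIs and at most 1 UMI of the chemokine gene Cxcl9. The 811 Arg1-low barcodes they were compared with passed the 4 gates with at most 1 Arg1 UMI, and no Cxcl9 gate was set on them.

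The study profiled brain tissue of Balb/c mice, 1 library titled positive and 1 titled control, with cells loaded on a Singleron microfluidic chip. It models brain metastasis of breast cancer with 4T1, a mouse mammary carcinoma line of the triple-negative type. The treatment field goes against the titles, because it calls the titled control brain the one with 4T1 metastasis and the titled positive brain the one without. Group names here follow the titles alone, and nothing is said of an effect of metastasis. The labels give neither age and sex nor the number of animals per library.

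Arginase 1, the product of Arg1, splits arginine into ornithine and urea, and so takes from the arginine pool that nitric oxide synthase and T cells use. In mice it is a textbook gene of the alternative activation that interleukin 4 and interleukin 13 drive, and it is also known in macrophages of tumours and of hypoxic tissue. Hypoxia-inducible factors bind DNA at a core of the letters ACGTG, the hypoxia response element, and genes of glycolysis, vessel growth and lipid storage are among their known targets.

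Promoters of the hypoxia response list are shown because each of its genes with enough UMIs had a ratio of members over Arg1-low barcodes above 0. Of all genes with enough UMIs 45.5% had such a ratio. The letters ACGTG were searched on both strands, as ACGTG or CACGT, from 250 bases before to 50 after each start site in the RefSeq promoter table (GRCm38.p6), and a CACGTG counts as 2 overlapping matches. They occurred at 15 of 17 hypoxia response genes with a promoter in the table (88.2%), 12 of 17 glycolysis genes (70.6%) and 6 of 15 genes of oxidative phosphorylation (40%). The shares were 3 of 15 alternative activation genes (20%), 2 of 20 interferon response genes (10%), 0 of 7 CC chemokine genes and 0 of 6 MHC class II genes. Over all 27025 genes of the table the share was 21.8%, and over the 3852 matched genes with at least 100 UMIs in Arg1-high or Arg1-low barcodes it was 30.9%. Several of the hypoxia and glycolysis genes are known from such elements, so the lists are not independent of the motif. A match is a run of letters, not a bound site. Below are 1 of the 2 Hilpda promoters in the table, at chr6:29272376-29272675 on the plus strand, and the Bnip3 promoter, at chr7:138909457-138909756 on the minus strand, each 5′ to 3′ with matches in capitals.
Hilpda: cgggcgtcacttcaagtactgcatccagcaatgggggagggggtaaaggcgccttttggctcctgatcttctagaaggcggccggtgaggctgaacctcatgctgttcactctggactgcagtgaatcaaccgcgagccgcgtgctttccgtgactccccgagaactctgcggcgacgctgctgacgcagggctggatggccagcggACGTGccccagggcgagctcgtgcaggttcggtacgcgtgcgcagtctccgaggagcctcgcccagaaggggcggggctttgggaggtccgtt
Bnip3: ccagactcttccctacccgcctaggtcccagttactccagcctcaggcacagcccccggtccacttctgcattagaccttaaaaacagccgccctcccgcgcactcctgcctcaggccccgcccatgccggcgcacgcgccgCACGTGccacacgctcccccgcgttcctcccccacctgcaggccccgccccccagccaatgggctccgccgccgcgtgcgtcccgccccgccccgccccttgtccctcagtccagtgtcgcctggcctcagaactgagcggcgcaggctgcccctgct

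Arg1 itself chose the members, so its values describe the gate. Members held between 5 and 66 Arg1 UMIs, with quartiles at 9, 14 and 22. Per 10000 UMIs of the barcode these were 4.35 to 120, with a median of 26.7. Summed over members Arg1 stood at 3039 UMIs per 1000000 UMIs of the group (CPM), against 40.02 CPM in Arg1-low barcodes, and members held 33.5% of the library's 28308 Arg1 UMIs. At the threshold, 47 members had exactly 5 Arg1 UMIs, and 42 barcodes that passed every other gate had exactly 4. Ccl24 stood at 119 CPM in the members with 5 and 142 CPM in the barcodes with 4, and Mrc1 at 208 CPM and 186 CPM.

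**Figure D1:**
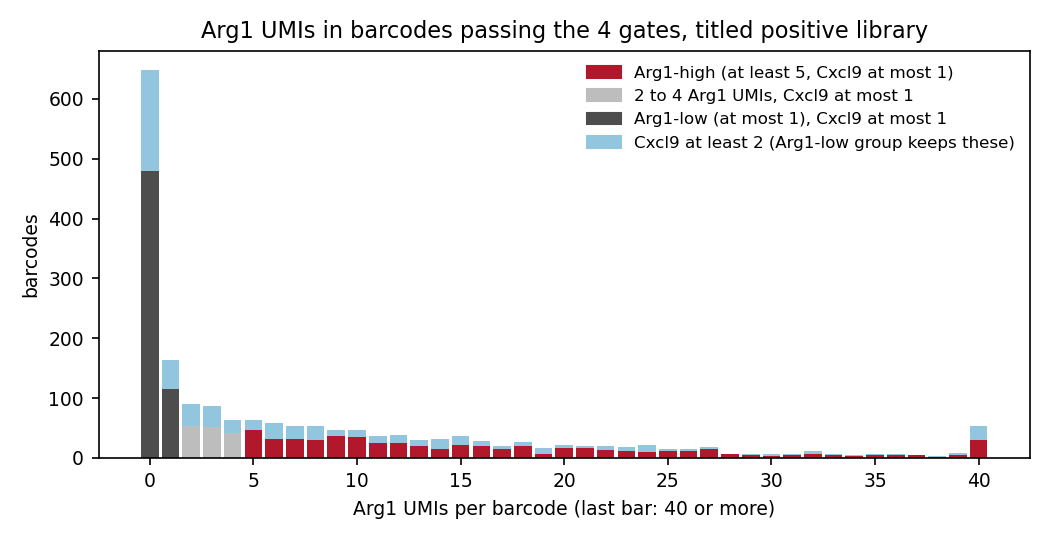
Number of barcodes of the titled positive library (vertical) by Arg1 UMIs (horizontal) among the 1914 that passed the 4 gates; dark red bars are the 559 members, dark grey and the blue on top of it at 0 and 1 UMIs the 811 Arg1-low barcodes, light grey 2 to 4 UMIs, blue Cxcl9 of at least 2 UMIs. Counts decline without a gap across the threshold of 5 UMIs.

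The same 4 gates kept 177 barcodes of the titled control library, and none had an Arg1 UMI (0 of 177, which allows a share of up to 1.69% by the limit of 3 counts and 2.06% by the exact interval). In that whole library 2 barcodes held all 13 Arg1 UMIs, and 1 of them had at least 5. The 177 barcodes differed from members in more than Arg1. The border macrophage genes Lyve1 (0.961 CPM in members and 28.5 CPM in titled control), Cbr2 (0.641 CPM and 61.0 CPM) and Folr2 (6.41 CPM and 34.6 CPM) were lower in members. So were the lectin gene Mgl2 (1.28 CPM in members and 963 CPM in titled control) and the chemokine gene Ccl17 (2.24 CPM and 230 CPM). Hilpda was higher in members, at 250 CPM against 13.2 CPM in titled control. With 1 library per title, library, animal and condition cannot be told apart.

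Members had a median of 4997 UMIs and 1825 genes per barcode, against 4320 UMIs and 1680 genes in Arg1-low barcodes, and mitochondrial medians of 1.81% and 1.94%. Arg1 UMIs also lay outside myeloid barcodes: 1769 carcinoma barcodes of the same library (median 7178 UMIs) had an Arg1 UMI in 20.5%, close to the 20.1% of Arg1-low barcodes. Whether free RNA was the source in the carcinoma barcodes was not tested. At 3000 UMIs per barcode the shares were 99.3% of members, 12.8% of Arg1-low barcodes and 9.33% of carcinoma barcodes, and no barcode was shallower. The intervals at that depth were 10.6% to 15.3% for Arg1-low barcodes and 8.01% to 10.8% for carcinoma barcodes. The rule itself held Arg1-low barcodes to at most 1 Arg1 UMI. Whether their single Arg1 UMIs came from free RNA or from low expression was not tested. The libraries shared 149 barcode sequences, 4 of them members'. Scrublet called 6 members (1.07%) and 15 Arg1-low barcodes (1.85%) doublets. The profile of carcinoma barcodes, scaled to the epithelial genes, accounted for 6.84% of members' UMIs and 7.41% of those in Arg1-low barcodes. All members lie in 1 library and were chosen on these cells, so no comparison has a replicate check, a test or a p-value. Intervals are exact and cover counting error only.

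The macrophage label was set beside lists of marker genes. All 12 macrophage genes were detected, and their summed level was 24018 CPM in members and 16796 CPM in Arg1-low barcodes. Of the genes given with the label, Arg1 was fixed by the rule. Of the others, Ccl6 had a UMI in 88.2% of members and 63.1% of Arg1-low barcodes, Chil3 in 73.0% and 59.7%, Mrc1 in 47.6% and 18.5%, and Ccl24 in 30.8% and 9%. Of the marker lists of other cells, border macrophage, fibroblast or pericyte and astrocyte genes had higher sums in members, and all others had lower sums. Border macrophage genes, Pf4 among them, summed to 490 CPM in members and 185 CPM in Arg1-low barcodes, fibroblast or pericyte genes to 58.3 CPM and 29.5 CPM, and astrocyte genes to 87.4 CPM and 76.1 CPM. Neutrophil genes summed to 3055 CPM in members and 33581 CPM in Arg1-low barcodes, NK cell genes to 26.3 CPM and 396 CPM, and oligodendrocyte genes to 610 CPM and 1600 CPM. Carcinoma genes summed to 1320 CPM and 3314 CPM. That list holds Lcn2, which is also a neutrophil gene, and the epithelial genes that the rule capped in both groups. Of its 7 genes with enough UMIs 1 had an interval below 0, and their median log2 ratio was -0.12. Monocyte genes summed to 3791 CPM and 4736 CPM. Endothelial genes summed to 753 CPM and 1316 CPM, and microglial genes to 809 CPM and 1141 CPM. The Arg1-low barcodes are thus a mixture. At least 100 UMIs of the neutrophil genes S100a8 and S100a9 were in 9 members and 72 Arg1-low barcodes, more than 1 UMI of T or NK cell genes in 18 and 55, and more than 1 of dendritic cell genes in 9 and 40. A single member barcode with 2443 S100a8 and S100a9 UMIs held 88.5% of members' Camp and 62.4% of their S100a9.

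Both groups also held barcodes with many and with few UMIs of C1qa, C1qb and C1qc, the chains of the complement starter C1q, which tissue macrophages make. Counts of at least 10 were found in 351 members and 388 Arg1-low barcodes, and fewer in 208 and 423. Counts of 5 to 19, around this bound, were found in 38 members and 71 Arg1-low barcodes. The leading genes and lists are therefore also given within C1q-high barcodes (332 members and 360 Arg1-low) and within C1q-low barcodes (194 and 302), both without barcodes over the neutrophil, T, NK and dendritic cell limits named above. These bounds were chosen after the values had been seen. Within C1q-high barcodes the macrophage genes summed to 30485 CPM in members and 26399 CPM in Arg1-low barcodes. Within C1q-low barcodes they summed to 10213 CPM and 10042 CPM. Their median log2 ratio was 0.46 in all, 0.07 within C1q-high and 0.11 within C1q-low barcodes. That list holds the C1q genes that set the bound. A UMI of the monocyte genes Ly6c2 or Ccr2 was in 70.7% of members and 67.3% of Arg1-low barcodes.

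**Figure D2:**
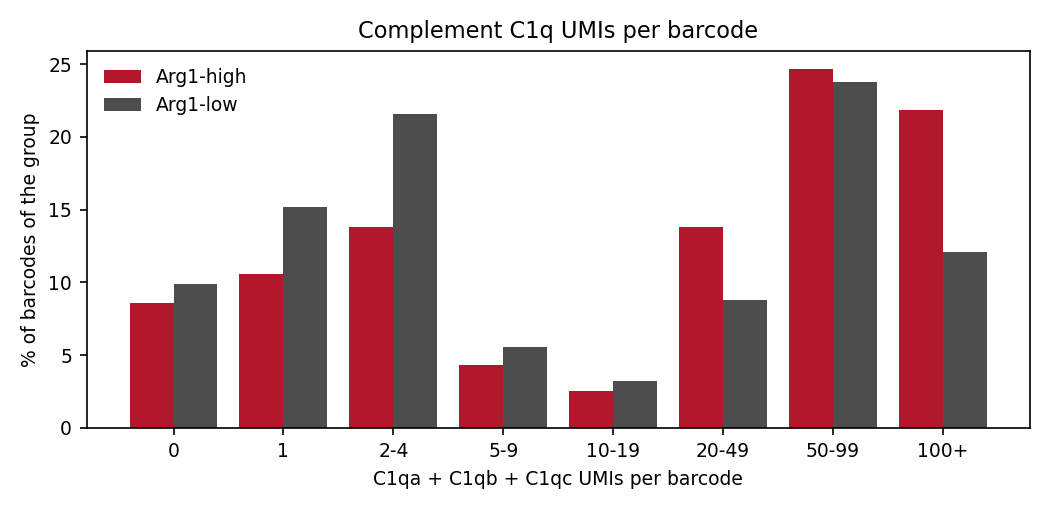
Percent of each group's barcodes (vertical) by summed C1qa, C1qb and C1qc UMIs (horizontal), Arg1-high in red at the left of each pair and Arg1-low in grey at the right. Both groups have a low and a high peak with few barcodes at 10 to 19 UMIs, and the bar of 100 or more UMIs is taller in Arg1-high.

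Of 4923 genes with 100 or more UMIs in the higher group, 46 (0.934%) were at least 2-fold higher in members than in Arg1-low barcodes and 145 (2.95%) at least 2-fold lower. Within C1q-high barcodes 57 of 2891 (1.97%) were higher and 49 (1.69%) lower, and within C1q-low barcodes 12 of 2064 (0.581%) and 33 (1.6%). The counts describe these cells, since the rule sorted them by one of their own genes. The median log2 ratio of all genes was -0.03.

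Chemokine genes led the ratios beside Arg1. Pf4, which encodes platelet factor 4, a CXC chemokine, stood at 193 CPM in members and 12.03 CPM in Arg1-low barcodes (log2 ratio 3.99, 3.58 to 4.45). Its interval within C1q-low barcodes ran from -0.28 to 5.54, so only the C1q-high barcodes resolve it. Ccl24, the eosinophil attractant eotaxin-2 (GRCm38 chromosome 5, 135569937 to 135573049, minus strand), had a UMI in 30.8% of members and 9% of Arg1-low barcodes. Its log2 ratio was 2.77 (2.54 to 3.02) in all, 2.91 within C1q-high and 1.48 within C1q-low barcodes. At 3000 UMIs per barcode 23.3% of members, 6.54% of Arg1-low barcodes and 0.622% of carcinoma barcodes had a Ccl24 UMI. Ccl6, another CC chemokine, stood at 2334 CPM in members and 600.3 CPM in Arg1-low barcodes, with log2 ratios of 1.96 in all, 2.17 within C1q-high and 1.02 within C1q-low barcodes. Mrc1, the mannose receptor that takes up glycoproteins, had 287 CPM in members and 78.8 CPM in Arg1-low barcodes, with log2 ratios of 1.65 within C1q-high and 0.93 within C1q-low barcodes.

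Genes of clotting and matrix were among the highest as well. F7, coagulation factor VII, stood at 94.5 CPM in members and 22.6 CPM in Arg1-low barcodes, with log2 ratios of 2.06 in all, 2.13 within C1q-high and 1.48 within C1q-low barcodes. It had no UMI in the gated titled control barcodes. Thbs1, the matrix glycoprotein thrombospondin 1, stood at 102 CPM in members and 30.0 CPM in Arg1-low barcodes, and its log2 ratio of 1.76 was 2.33 within C1q-high but 0.70 within C1q-low barcodes. The carcinoma barcodes had 39.1 CPM of Thbs1 and 0.93 CPM of F7. Also among the 12 highest were Hilpda, Col14a1 (2.46), Rnase2a (2.39), Cacna1d (1.73) and Tmem37 (1.64). Rnase2a, a ribonuclease of the eosinophil family with close paralogs, was at 3.25 within C1q-high and 0.18 within C1q-low barcodes, and reads of a paralog could be counted in it.

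Most of the 12 lowest ratios belonged to neutrophil and NK cell genes and were closer to 0 once barcodes rich in those cells' genes were set aside. S100a9, a subunit of the neutrophil protein calprotectin, had a log2 ratio of -4.41 in all, -0.35 within C1q-high and -0.18 within C1q-low barcodes. Stfa3, a stefin of neutrophils, had -5.87, -1.25 and -0.48, and Gzma, a granzyme of NK cells, had -4.50, -0.61 and 0.62. Within C1q-high barcodes Stfa3 was still past 2-fold lower, on 3 UMIs in members and 7 in Arg1-low barcodes with an interval of -3.96 to 0.76, and so was Asprv1 (-1.05, on 3 and 6 UMIs). Retnlg (-0.97, -1.66 to -0.32) and Ngp (-0.84, -1.40 to -0.30) had intervals below 0 there. These genes, Gzma, Ccl17 and Mgl2 had under 100 UMIs within the strata. Ccl17 and Mgl2, both genes of alternative activation, remained past 2-fold in both strata. Ccl17 had 7 UMIs in members and 284 in Arg1-low barcodes, with log2 ratios of -4.86 in all, -4.31 within C1q-high and -4.21 within C1q-low barcodes. Mgl2, a galactose-type lectin also found on dendritic cells, had 4 UMIs in members and 129 in Arg1-low barcodes, with -4.46, -3.12 and -4.69. The 8 dendritic cell genes summed to 27.5 CPM in members and 67.5 CPM in Arg1-low barcodes, 19.5 CPM and 18.4 CPM within C1q-high and 16.7 CPM and 27.6 CPM within C1q-low barcodes, and their part in these ratios was not tested.

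**Figure D3:**
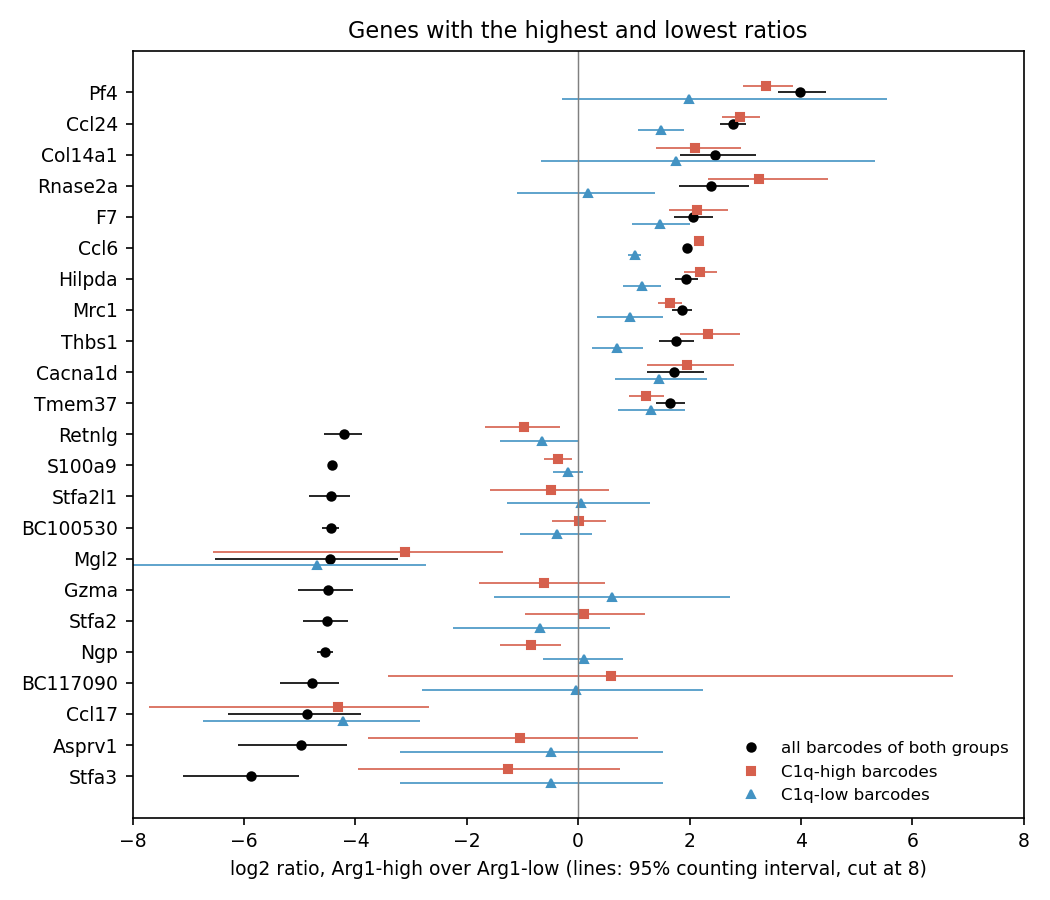
Log2 ratio of Arg1-high over Arg1-low barcodes (horizontal) for genes among the 12 highest and for the 12 lowest (vertical), as points for all barcodes in black, C1q-high in red and C1q-low in blue, with 95% counting intervals as lines. The points of the upper genes stay right of 0 in each series, and of the lower genes Ccl17 and Mgl2 stay near -3 to -5 while the others lie closer to 0.

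Alternative activation genes were mostly higher in members, though not all of them. Of 22 genes 14 had enough UMIs, 12 of them with ratios above 0 against 45.5% of all genes, and 5 were at least 2-fold higher (0.934% of all) and 2 at least 2-fold lower (2.95% of all). The median log2 ratio was 0.79, 1.26 within C1q-high and 0.49 within C1q-low barcodes. Within C1q-high barcodes 10 of 10 genes were above 0 (46% of all) and 7 at least 2-fold higher (1.97% of all). Within C1q-low barcodes 7 of 8 were above 0 (43% of all) and 1 at least 2-fold higher (0.581% of all). Ccl17 and Mgl2, the 2 lower genes, had too few UMIs within the strata to be counted there. Besides Ccl24 and Mrc1, the higher genes were Socs2, a feedback inhibitor of cytokine signalling (136 CPM in members and 49.6 CPM in Arg1-low), Egr2, a transcription factor of the interleukin 4 response (74.3 CPM and 34.6 CPM), and the fibronectin gene Fn1 (1272 CPM and 628 CPM). Within C1q-low barcodes the log2 ratio was 0.74 for Socs2, 0.85 for Egr2 and 0.47 for Fn1. Chil3, a chitinase-like lectin given with the label, differed little in all barcodes (2144 CPM and 1869 CPM, 0.20) but by 1.20 within C1q-high barcodes. Retnla, a classic interleukin 4 target, had 0 UMIs in members and 1 in Arg1-low barcodes. The interleukin 4 receptor gene Il4ra stood at 169 CPM in members and 122 CPM in Arg1-low barcodes.

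Enzymes around arginine other than Arg1 were close to the Arg1-low level. The 14 other genes with enough UMIs had a median of 0.09. Arg2, the mitochondrial arginase, had the highest ratio of them (207 CPM and 119 CPM, 0.80), followed by the arginine transporter gene Slc7a2 (34.3 CPM and 20.9 CPM, 0.71). Odc1, which starts polyamine synthesis from ornithine, had 31 UMIs in members and 36 in Arg1-low barcodes. Nos2, the inducible nitric oxide synthase, stood at 55.7 CPM in members and 41.0 CPM in Arg1-low barcodes, so it was not lower beside high Arg1.

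All 14 hypoxia response genes with enough UMIs had ratios above 0, against 45.5% of all genes, with a median of 0.48. Of the 14, 3 were at least 2-fold higher, against 0.934% of all genes. The 3 at least 2-fold higher were Hilpda, an inhibitor of lipid droplet breakdown (250 CPM in members and 64.8 CPM in Arg1-low, 1.94), Vegfa, the vessel growth factor (220 CPM and 80.0 CPM, 1.46), and Bnip3, a receptor for mitophagy (340 CPM and 146 CPM, 1.22). Within C1q-low barcodes the same genes had 1.14, 0.88 and 0.71, and 7 of 9 list genes were above 0 there, against 43% of all genes. Carcinoma barcodes stood at 40.4 CPM for Hilpda, 24.6 CPM for Vegfa and 128 CPM for Bnip3, each below the members. Glycolysis moved less per gene and more evenly, with 16 of 16 above 0, against 45.5% of all genes, and none of them 2-fold. The median was 0.44, which was 0.55 within C1q-high and 0.30 within C1q-low barcodes. Tpi1, triose phosphate isomerase, was at 703 CPM in members and 403 CPM in Arg1-low barcodes, and Ldha, which makes lactate, at 1211 CPM and 861 CPM. The 18 oxidative phosphorylation genes had a median of 0.01, with 10 above 0, against 45.5% of all genes.

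Chemokine genes differed by member, not by family. Of 11 CC genes 6 had ratios above 0, near the 45.5% of all genes, while 2 were at least 2-fold higher (0.934% of all genes) and 2 at least 2-fold lower (2.95%). Ccl12, a monocyte attractant, was among the lower (432 CPM and 890 CPM), at -1.66 within C1q-high barcodes. Ccl2 and Ccl7, further monocyte attractants, were lower within C1q-high barcodes (-1.24 and -1.23) and higher within C1q-low barcodes (0.72 and 0.54). Ccl9 turned the other way, at 1.85 within C1q-high and -0.71 within C1q-low barcodes. Among CXC genes, Cxcl1 (80.4 CPM and 27.7 CPM), Cxcl2 (1056 CPM and 425 CPM), which attract neutrophils, and Cxcl14 (205 CPM and 76.1 CPM) were higher in members. Cxcl10, an interferon-induced T cell attractant, was lower (124 CPM and 234 CPM), beside a rule that kept Cxcl9 out of members alone.

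**Figure D4:**
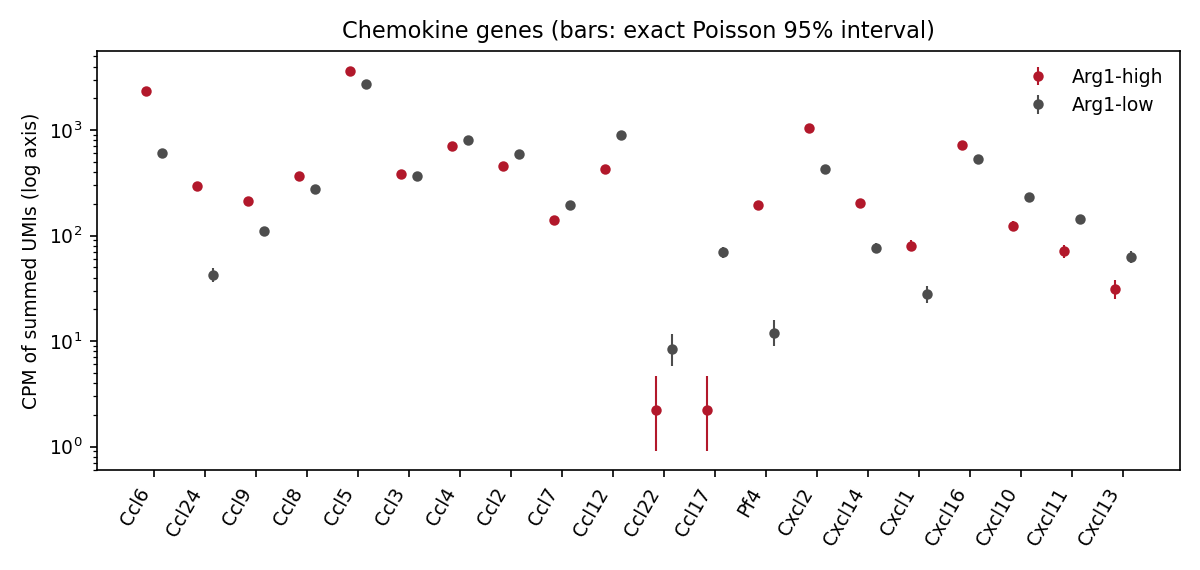
CPM of summed UMIs on a log axis (vertical) for 20 chemokine genes (horizontal), Arg1-high in red at the left and Arg1-low in grey at the right, with exact Poisson 95% intervals as bars. Ccl24, Ccl6 and Pf4 are higher in Arg1-high, and Ccl17, Ccl12 and Cxcl10 are lower.

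Cytokine genes were mostly higher in members, at a median of 0.65 with 12 of 14 above 0, against 45.5% of all genes. The median was 0.56 within C1q-high and 0.50 within C1q-low barcodes. Il1a, an alarm cytokine, stood at 254 CPM in members and 109 CPM in Arg1-low barcodes, and Il1rn, which blocks its receptor, at 269 CPM and 142 CPM. Il6 stood at 54.8 CPM and 24.3 CPM. Tnf went the other way, with 23.1 CPM in members and 87.6 CPM in Arg1-low barcodes (log2 ratio -1.92, -2.31 to -1.56), -2.61 within C1q-high and -0.56 within C1q-low barcodes. Among matrix and protease genes 5 of 26 were at least 2-fold higher, against 0.934% of all genes, while 18 had ratios above 0 and 6 had intervals below 0. Within C1q-low barcodes 1 of 17 was at least 2-fold higher. The higher genes included F7, Thbs1, Fn1 and the metalloprotease gene Adam8 (176 CPM and 68.5 CPM). Mmp9, a gelatinase, depended on the barcodes compared, at -0.81 in all, 3.38 within C1q-high and -5.04 within C1q-low barcodes. Ctsk, a collagen-cutting cathepsin, had 1000 UMIs in 2.34% of Arg1-low barcodes and 37 UMIs in members.

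MHC class II genes, which present antigen to helper T cells, were modestly lower in members. Of 10 genes 1 was above 0, against 45.5% of all genes, and none was 2-fold lower. The median was -0.37, -0.52 within C1q-high and -0.40 within C1q-low barcodes. H2-Aa stood at 4077 CPM in members and 5258 CPM in Arg1-low barcodes, and Cd74, the invariant chain, at 12323 CPM and 14605 CPM. Interferon response genes had 3 of 21 above 0 and a median of -0.23, which was -0.50 within C1q-high and -0.41 within C1q-low barcodes, with Ifit3 at 35.2 CPM in members and 70.0 CPM in Arg1-low barcodes. With Cxcl9 held to at most 1 UMI in both groups the medians were -0.20 for MHC class II and -0.12 for interferon response. Carcinoma barcodes had 2829 CPM of Cd74 and 576 CPM of the interferon gene Gbp2. With the carcinoma profile, scaled to the epithelial genes, subtracted from both groups, the log2 ratio was -0.26 for Cd74 and -0.38 for H2-Aa. Without the subtraction these were -0.25 and -0.37. The rule capped those epithelial genes in both groups, which bounds what the subtraction can remove. The part of other free RNA in these ratios was not tested. Proliferation genes had 1 of 14 above 0, against 45.5% of all genes, and a median of -0.79, with Mki67 at 60.2 CPM in members and 108 CPM in Arg1-low barcodes. Their median was -0.72 over 8 genes within C1q-high barcodes. Within C1q-low barcodes 2 genes had enough UMIs, at a median of -0.19 with neither interval below 0. Apoe, the lipid carrier of macrophages, stood at 24620 CPM in members and 14282 CPM in Arg1-low barcodes (log2 ratio 0.79 in all, 0.36 within C1q-high and 0.68 within C1q-low barcodes), and Cd274, which encodes PD-L1, at 169 CPM and 164 CPM.

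Members were not uniform, and many genes differed between C1q-high and C1q-low members. Arg1 was 3151 CPM in the C1q-high members and 3079 CPM in the C1q-low members. Both sets passed the same Arg1 gate, so these values cannot show whether Arg1 goes with C1q. Of 2734 genes 62 (2.27%) were at least 2-fold higher in C1q-high members and 28 (1.02%) at least 2-fold lower. Pf4 (268 CPM and 6.68 CPM), Ccl8 (469 CPM and 14.5 CPM), Mrc1 (391 CPM and 62.3 CPM) and Ms4a7, a gene of mature macrophages (137 CPM and 28.9 CPM), were higher with C1q. Ccl24 was higher too, at 345 CPM in C1q-high and 157 CPM in C1q-low members. The monocyte genes Ly6c2 (441 CPM and 2502 CPM), Ccr2 (143 CPM and 554 CPM) and Plac8 (775 CPM and 1619 CPM) were lower, and so was Chil3 (1195 CPM and 3854 CPM). Thus Mrc1 and Chil3, both given as markers of these cells, leaned to opposite ends. Of the 266 members with an Mrc1 UMI 62.4% also had a Chil3 UMI, against 82.6% of the 293 without.

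Pf4 lay in few members: 62 of 559 held its 602 UMIs, between 1 and 100 each with a median of 3, and the highest barcode held 16.6%. Of these 62, 56 had at least 10 C1q UMIs. Beside the 497 other members they had less Ly6c2 (109 CPM and 1300 CPM) and more Ccl8 (1237 CPM and 234 CPM), Ccl12 (1417 CPM and 278 CPM), F13a1, a clotting factor subunit (425 CPM and 132 CPM), and Mmp9 (290 CPM and 24.8 CPM). Of the border macrophage genes, Cd163 (35.6 CPM and 3.70 CPM, on 15 and 10 UMIs) and Folr2 (26.1 CPM and 3.33 CPM, on 11 and 9 UMIs) were higher in them. Lyve1 and Cbr2 had 0 UMIs in the Pf4 members and 3 and 2 UMIs in the others, too few to compare. The platelet gene Ppbp had 1 UMI. Their median depth was 6226 UMIs, against 4781 UMIs in the others. The Pf4 members were singled out after their values had been seen.

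Members were then ordered by Arg1 per 10000 UMIs and cut into quartiles of 140, 140, 139 and 140 barcodes, whose median depths lay between 4678 and 5402 UMIs. Of 1288 genes 19 (1.48%) were at least 2-fold higher in the highest quartile than in the lowest and 23 (1.79%) at least 2-fold lower. Ccl24 stood at 123, 228, 359 and 483 CPM from the lowest to the highest quartile, and Pf4 at 27.5, 162, 261 and 343 CPM. Hilpda stood at 99.4, 213, 272 and 435 CPM. Each of these genes rose from quartile to quartile. They were picked as among the 8 highest ratios of these quartiles, so the rise is a description and no separate support. Pf4 had UMIs in only 62 members. Mmp9 (9.58, 45.2, 56.5 and 138 CPM), Ccl9 (89.8, 201, 194 and 383 CPM), Thbs1 (45.5, 82.8, 92.8 and 194 CPM) and Ccl7 (88.6, 92.9, 149 and 240 CPM) were also among the 8 highest.

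Mrc1 did not follow the same course, at 257, 275, 227 and 392 CPM. Bnip3 stood at 223, 217, 354 and 590 CPM, so its highest levels were in the upper quartiles, and H2-Aa at 4588, 4473, 3905 and 3254 CPM ran against Arg1. Hypoxia response genes had 9 of 9 above 0 at a median of 0.54 for the highest over the lowest quartile, glycolysis 11 of 11 at 0.45 and immediate early genes 15 of 15 at 0.50, against 41.3% of all genes above 0. The C1q-high share was 60%, 62.9%, 64.0% and 64.3% across the quartiles. A UMI of Ly6c2 or Ccr2 was in 76.4%, 76.4%, 65.5% and 64.3%. The 8 lowest genes were Camp, Ngp, Gm5483, BC100530, S100a9, Cldn11, Apod and S100a8. The barcode with 2443 S100a8 and S100a9 UMIs, in the lowest quartile, held 79.5% of members' Ngp beside its share of Camp and S100a9. Apod, a lipocalin of oligodendrocytes and other brain cells, stood at 2934, 934, 1803 and 885 CPM with no even order.

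**Figure D5:**
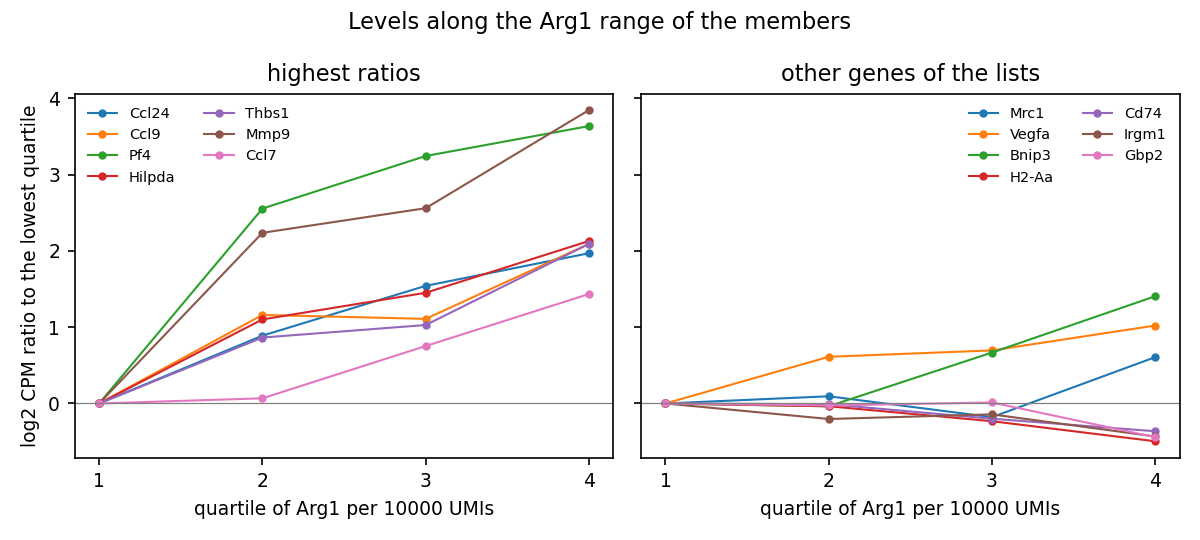
Log2 CPM ratio to the lowest quartile (vertical) across quartiles of Arg1 per 10000 UMIs, from low to high (horizontal), for genes among the 8 of highest ratio (left) and 7 other list genes (right), 1 line per gene. The left lines all end above 0 with Mmp9 and Pf4 highest, while the MHC and interferon genes at the right end below 0.

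Barcodes with at least 5 Arg1 and at least 2 Cxcl9 UMIs, left out by the rule, numbered 305 at a median of 6404 UMIs, deeper than the members. Of 3952 genes 22 (0.557%) were at least 2-fold higher in members and 14 (0.354%) at least 2-fold lower. Arg1 was 3039 CPM in members and 2625 CPM in the Cxcl9-expressing barcodes. Ccl24 (292 CPM and 107 CPM), Pf4 (193 CPM and 53.4 CPM) and Il6 (54.8 CPM and 15.5 CPM) were higher in members. Cxcl10 (124 CPM and 339 CPM), Cxcl11 (70.8 CPM and 323 CPM), Ccl5, a T cell attractant (3658 CPM and 7764 CPM), and Cd40, a costimulatory receptor (40.4 CPM and 100.4 CPM), were lower. Hypoxia genes had a median of 0.26 and glycolysis genes of 0.03 in this comparison.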

How the data were processed

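Single-cell RNA libraries of mouse brain, 1 titled positive and 1 titled control, were analysed. The deposited values are UMI counts, not normalized, for each gene in each barcode. Cell Ranger and the build GRCm38 are named, per the submitters' processing notes. Neither labels nor notes state the annotation, the cell calling or the strand setting, so counts of overlapping, antisense and near-identical genes, H2 genes included, are uncertain. Coordinates came from GENCODE M21 on GRCm38, which held 26093 of the 26129 gene identifiers of the titled positive library, and promoters from RefSeq (GRCm38.p6). The libraries held 98141261 UMIs (titled positive) and 55657687 UMIs (titled control).

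Deposited barcodes were used without further filtering, and doublets were called with scanpy 1.11.5 but left out only in an alternative. UMIs were summed over a group and scaled to CPM, counts per 1000000 UMIs of the group. Log2 ratios used a pseudocount of 0.5 UMIs, with exact Poisson intervals for CPM and conditional exact binomial intervals for ratios. A gene needed 100 UMIs in the higher group. Named genes were the 12 highest and 12 lowest ratios with a UMI in at least 5% of barcodes of the higher group, the 8 highest and 8 lowest along the quartiles, and members of gene lists with high levels or extreme ratios. List genes named beyond that, and the Pf4 members, were chosen after their values were seen. Some results are not reported here. Members and lists were chosen with earlier results of these data known. Calculations were tested on simulated counts. Alternatives changed the gates, the depth, the scaling and the minimum of UMIs.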

Additional observations from a re-analysis of the deposited data

How the results depend on the processing

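Other settings were tried in 15 forms, and 3 more were chosen after seeing the data. Of the 31 named genes past 2-fold, 29 to 31 kept that under the 15, and 23 within C1q-high barcodes, 13 within C1q-low barcodes and 23 without barcodes of at least 100 S100a8 and S100a9 UMIs. The 46 genes at least 2-fold higher became 70 with Cxcl9 at most 1 UMI in the comparison, 81 in barcodes of 5000 to 20000 UMIs, 121 with a minimum of 20 UMIs, 1975 with none, and 12 within C1q-low barcodes. The 145 at least 2-fold lower became 68 under stricter gates, 59 with at least 5 C1q UMIs and no T, NK or dendritic cell markers, 76 thinned to 3000 UMIs, 633 and 3668 with a minimum of 20 UMIs and with none, 49 within C1q-high and 33 within C1q-low barcodes, and 91 without the S100a8 and S100a9 barcodes. The 559 members became 216 under stricter gates, by construction. Among genes past 2-fold, log2 ratios turned sign within C1q-high barcodes for BC100530 (0.018), BC117090 (0.58) and Stfa2 (0.10), and within C1q-low barcodes for Gzma (0.62), Ngp (0.10) and Stfa2l1 (0.054). C1qa, at 0.39 in all, had -0.13 within C1q-high barcodes. The causes were not tested beyond the smaller sets of genes and barcodes.

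List medians ranged from 0.28 to 1.26 for alternative activation, 0.22 to 0.65 for hypoxia response, 0.30 to 0.55 for glycolysis, -0.52 to -0.20 for MHC class II and -0.50 to -0.10 for interferon response, while CC chemokines ranged from -0.35 to 0.48 and took both signs. No paired analysis was possible because each title has 1 library and no replicate. Genes under 100 UMIs were not resolved at this depth.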

Other observations

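In the iron list, the ferritin genes Fth1 (18482 CPM in members and 12415 CPM in Arg1-low barcodes) and Ftl1 (2498 CPM and 1639 CPM) and the haem oxygenase gene Hmox1 (140 CPM and 79.8 CPM) were higher in members, while Lcn2, a neutrophil and epithelial gene, was lower (478 CPM and 2434 CPM) and at 0.03 (log2) within C1q-high barcodes. Among macrophage transcription factors Tfec stood at 56.4 CPM in members and 31.4 CPM in Arg1-low barcodes. Of the 17 lipid genes with enough UMIs 13 had ratios above 0, against 45.5% of all genes. Within C1q-high barcodes 9 of 16 did, against 46%, and within C1q-low barcodes 5 of 7, against 43%. The scavenger receptor gene Cd36 had the lowest ratio of the 17, with 2.88 CPM in members and 31.9 CPM in Arg1-low barcodes. Its log2 ratio was -3.91 within C1q-high barcodes. The heat shock gene Hspa1a was lower too, at 14.7 CPM in members and 42.0 CPM in Arg1-low barcodes.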
